A study of Homo sapiens with 8 samples.

Results

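Genes that responded to a change of MOV10 in either direction were sought in HEK293F cells, an established human embryonic kidney line. The comparison took the mean of the overexpression group and the knockdown group, each weighted equally, minus the control group. All 8 RNA-seq libraries of the series entered it: 3 with MOV10 overexpression (replicates 1 to 3), 2 with MOV10 knockdown (replicates 2 and 3) and 3 controls (replicates 1 to 3). Overexpression was a single transfection of a plasmid for myc-MOV10. Knockdown was siRNA against MOV10 given 3 times at 24 h intervals, and the controls received an irrelevant siRNA on that schedule. Of 15254 genes tested, 1997 were moved the same way by both perturbations, meaning that the mean of both, overexpression alone and knockdown alone each passed an adjusted p of 0.05 against control with the same sign (quasi-likelihood test of edgeR, adjusted by the Benjamini-Hochberg method).

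MOV10 is an RNA helicase that is found with FMRP, the protein lost in fragile X syndrome, and with the Argonaute proteins that carry microRNAs. It binds mainly 3' untranslated regions (3' UTRs) and can unwind them, which may expose a transcript to microRNAs or shield it from them. A transcript that follows the dose of MOV10 would be moved in opposite directions by overexpression and knockdown. The present contrast asks the reverse: which transcripts stood away from the control cells with both.

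The design sets a limit that applies to every value that follows. Both perturbations were compared with the same 3 control libraries, and no library of untransfected cells or of cells with an empty plasmid was used here. A gene that the irrelevant siRNA itself lowered or raised would therefore also appear to be moved the same way by both, and the 2 cannot be told apart. The sequence of the irrelevant siRNA is not given in the sources used here. Overexpression also differed from the other groups in its transfection, with 1 of plasmid against 3 of siRNA. In each comparison of overexpression with control or knockdown, the level of MOV10 and the transfection cannot be told apart. Whether replicates were grown as separate cultures is not stated, so each p-value measures the spread between libraries alone, and that spread may be technical.

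Totals ran from 12.7 M to 32.8 M counts per library. In a principal component analysis of 11166 genes, the first component (59.5% of the variance) placed the overexpression libraries at 17.3 to 22.4, the knockdown libraries at -19.7 and -14.6 and the controls between -9.24 and -6.72. The second component (27.6%) placed all 5 treated libraries below 0, from -14.7 to -1.72, and the 3 controls from 11.8 to 12.8. Of 15 embryonic kidney markers, 13 passed the filter on low counts. PAX8 and CDH6 stayed under 1 CPM (counts scaled to library size) in every library. The 15 summed to 1310 to 1330 CPM in control, 1220 to 1290 CPM with overexpression and 1490 to 1580 CPM with knockdown. Most of each sum was VIM, at 816 to 833, 749 to 795 and 1010 to 1100 CPM. Of 18 markers of other cell types, 10 stayed under 1 CPM in every library, among them the blood markers PTPRC and CD3E, the endothelial markers PECAM1 and VWF and the liver markers ALB and AFP. INS had no read. These 18 summed to 82.8 to 88.1 CPM in control, 87.7 to 96.5 CPM with overexpression and 66.9 to 68.9 CPM with knockdown, most of it COL1A1.

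MOV10 itself moved apart in the 2 treatments, as labelled. It stood at 76.8, 76.4 and 91.2 CPM in the control libraries, at 2971, 2916 and 2454 CPM with overexpression and at 50.6 and 55.5 CPM with knockdown. No group overlapped another. The log2 fold change against control was 5.10 ± 0.08 (SE) with overexpression and -0.62 ± 0.08 with knockdown. The mean of both, 2.24 ± 0.07, passed the test although the treatments went in opposite directions, which is why the single comparisons were also required.

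In the contrast of both perturbations with control, 2819 genes were higher and 2892 lower, 18.5% and 19.0% of those tested. The shifts were mostly small, since the 5711 called genes had a median of 0.27 in absolute log2 fold change. The called genes fell into unequal classes. Both treatments moved 1997 of them the same way (35.0%), 1114 higher and 883 lower, which is 7.3% and 5.79% of all genes tested. Overexpression alone passed for 973 higher and 1135 lower genes, and knockdown alone for 679 and 772. For 111 genes, MOV10 among them, the 2 single comparisons passed with opposite signs (32 with a higher mean and 79 with a lower), and for 44 neither passed alone.

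Over the genes moved the same way, the median shift was close in both treatments, although single genes differed. Those that rose had a median log2 fold change of 0.37 with overexpression and 0.38 with knockdown, and those that fell had -0.31 and -0.33. The median over all tested genes was 0.01 and 0.00. At least a 2-fold shift in both treatments was seen for 34 higher and 28 lower genes. All 5 treated libraries lay above every control library for 1052 of the 1114 higher genes and below every control library for 837 of the 883 lower genes. Over all tested genes, this held for 11.3% above and 10.6% below. Such separation was favoured by the choice of genes, which passed against these same controls, so it is not separate support.

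The direct comparison of overexpression with knockdown does not use the control libraries. It passed for 57.4% of all tested genes. Among genes moved the same way it passed for 412 of the 1114 higher (37.0%) and 304 of the 883 lower (34.4%). A lower share was built into the choice of these genes, since genes moved in opposite directions could not enter. It is therefore no test of agreement between the treatments. Of those 412, overexpression gave the larger rise for 196 and knockdown for 216. Of the 304, overexpression gave the larger fall for 118 and knockdown for 186. Leaving out knockdown replicate 2, the deepest library, reduced the genes moved the same way to 738 higher and 524 lower, and those among them that differed between the treatments to 325.

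**Figure D1:**
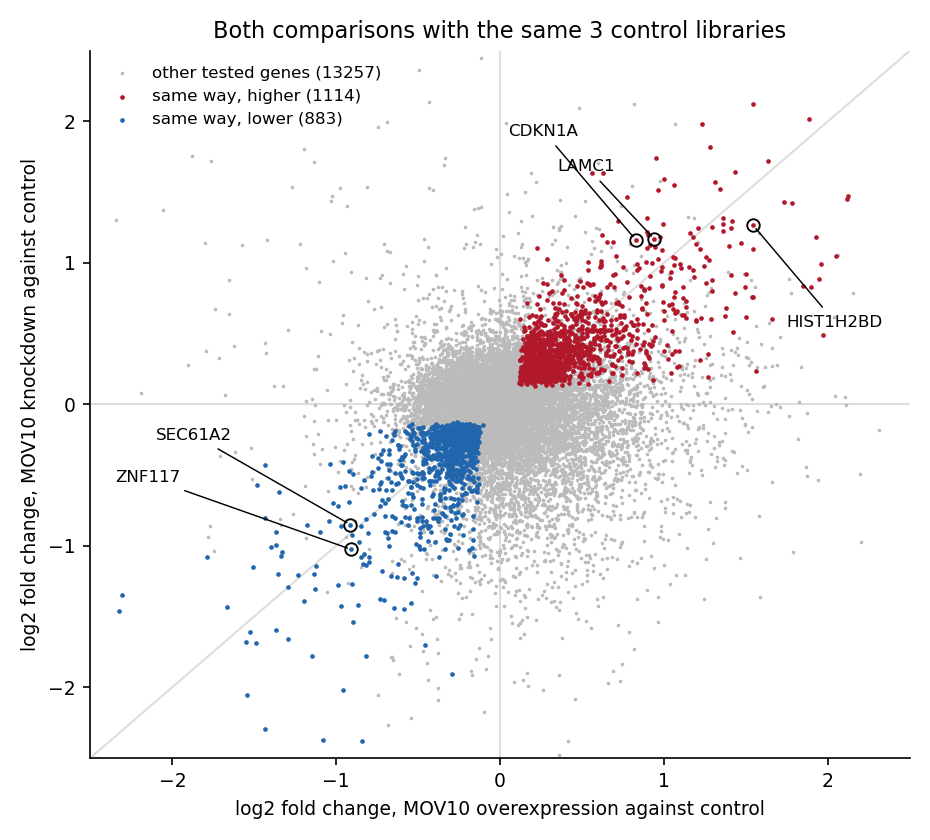
Log2 fold change of each of 15254 tested genes with MOV10 overexpression (x axis) and knockdown (y axis), both against the same 3 control libraries; red and blue points are the 1114 higher and 883 lower genes moved the same way, grey points all others. The coloured points lie along both sides of the diagonal; 27 points with a value beyond 2.5 in either comparison, MOV10 among them, are outside the axes.

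Genes were named by a rule of size, taken only from those with all 5 treated libraries beyond every control library. That separation was thus part of the choice. Among the genes so named, HIST1H2BD, a histone H2B gene, had the largest rise shared by both. It stood at 14.3, 13.5 and 12.6 CPM in control, at 40.1, 39.6 and 38.7 CPM with overexpression and at 36.9 and 27.3 CPM with knockdown. All 5 treated libraries lay above the controls, and knockdown replicate 3 was the lowest of them. The log2 fold change of both was 1.40 ± 0.09 (SE, adjusted p = 3.31e-10 by edgeR).

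KLF10, an early response transcription factor of the TGF-beta pathway, went from 46.4, 50.8 and 47.0 CPM in control to 109, 112 and 122 CPM with overexpression and 96.6 and 92.7 CPM with knockdown (log2 fold change 1.11 ± 0.05). All treated libraries lay far above control, and overexpression raised it by more (adjusted p = 0.00075 for the difference). ZFP36L1, which binds AU-rich elements and promotes the decay of their transcripts, went from 49.5, 47.2 and 47.4 CPM to 92.1, 96.8 and 88.9 CPM with overexpression and 107 and 101 CPM with knockdown (1.03 ± 0.05). Its knockdown libraries were the higher ones.

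TMCO1, a calcium channel of the endoplasmic reticulum, stood at 54.8, 51.4 and 53 CPM in control, 104, 99.2 and 108 CPM with overexpression and 110 and 106 CPM with knockdown. Its log2 fold change of both was 1.00 ± 0.05, and the treatments did not pass a test of their difference (-0.06, adjusted p = 0.36). WDFY1, an endosomal adaptor, behaved in the same manner at 41.5, 42.7 and 42.8 CPM in control, 89.1, 88.1 and 95.0 CPM with overexpression and 81.8 and 87.1 CPM with knockdown (1.05 ± 0.05). LAMC1, the gamma 1 chain of laminins, went from 178, 163 and 172 CPM to 348, 302 and 337 CPM with overexpression and 372 and 397 CPM with knockdown (1.05 ± 0.05). As the rule required, no treated library of these genes overlapped a control library.

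The other higher genes named by the rule included secreted or surface proteins and 2 further H2B genes. The secreted serine protease gene HTRA1 rose by 1.17 ± 0.09 and ADAMTS2, which removes the amino-terminal propeptide of procollagen, by 1.04 ± 0.11. RECK, a membrane-anchored inhibitor of matrix metalloproteases, rose by 0.96 ± 0.08. FCGRT, the neonatal Fc receptor, rose by 1.08 ± 0.07 and ERAP2, an aminopeptidase that trims peptides for presentation, by 1.06 ± 0.08. AHNAK, a giant scaffold protein, rose by 0.91 ± 0.07, HIST2H2BF by 1.04 ± 0.11 and HIST2H2BE by 0.99 ± 0.08. The smaller of the 2 single log2 fold changes, by which the rule ranked genes, was at least 0.88 in all 14 named higher genes.

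Lower genes named by the same rule moved by less. SEC61A2, a paralog of the pore-forming subunit of the translocon, stood at 63.1, 63.3 and 61.6 CPM in control, at 34.1, 31.9 and 34.1 CPM with overexpression and at 34.5 and 35.1 CPM with knockdown. The 5 treated libraries spanned only 31.9 to 35.1 CPM, and the log2 fold change of both was -0.88 ± 0.05 (adjusted p = 6.02e-11 by edgeR). ZNF117, a zinc finger gene, stood at 19.99, 22.4 and 22.6 CPM in control, 11.6, 9.89 and 13.7 CPM with overexpression and 10.3 and 11 CPM with knockdown (-0.97 ± 0.09). FOXQ1, a forkhead transcription factor, went from 20.2, 20.2 and 21.9 CPM to 10.004, 12.4 and 10.7 CPM with overexpression and 11.1 and 10.7 CPM with knockdown (-0.91 ± 0.08). In each of the 3 genes the treated groups lay close to one another and well below control.

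HLA-DOA, which regulates peptide loading of class II molecules, fell by 0.81 on the log2 scale, RAB36 by 0.78 and SLC43A2, a transporter of neutral amino acids, by 0.76. The pseudogene KLRAP1 fell by 0.72, PARP3, an enzyme of DNA break repair, by 0.69, C19orf57 by 0.67 and the reticulon gene RTN1 by 0.65. ACTR3B, a paralog of an Arp2/3 complex subunit, fell by 0.60, IDS, the lysosomal iduronate 2-sulfatase, by 0.59, AIFM2, which protects membranes from lipid peroxidation, by 0.59 and ANKRD5 by 0.57. The adjusted p of the 14 lower genes was at most 0.000198 (edgeR).

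**Figure D2:**
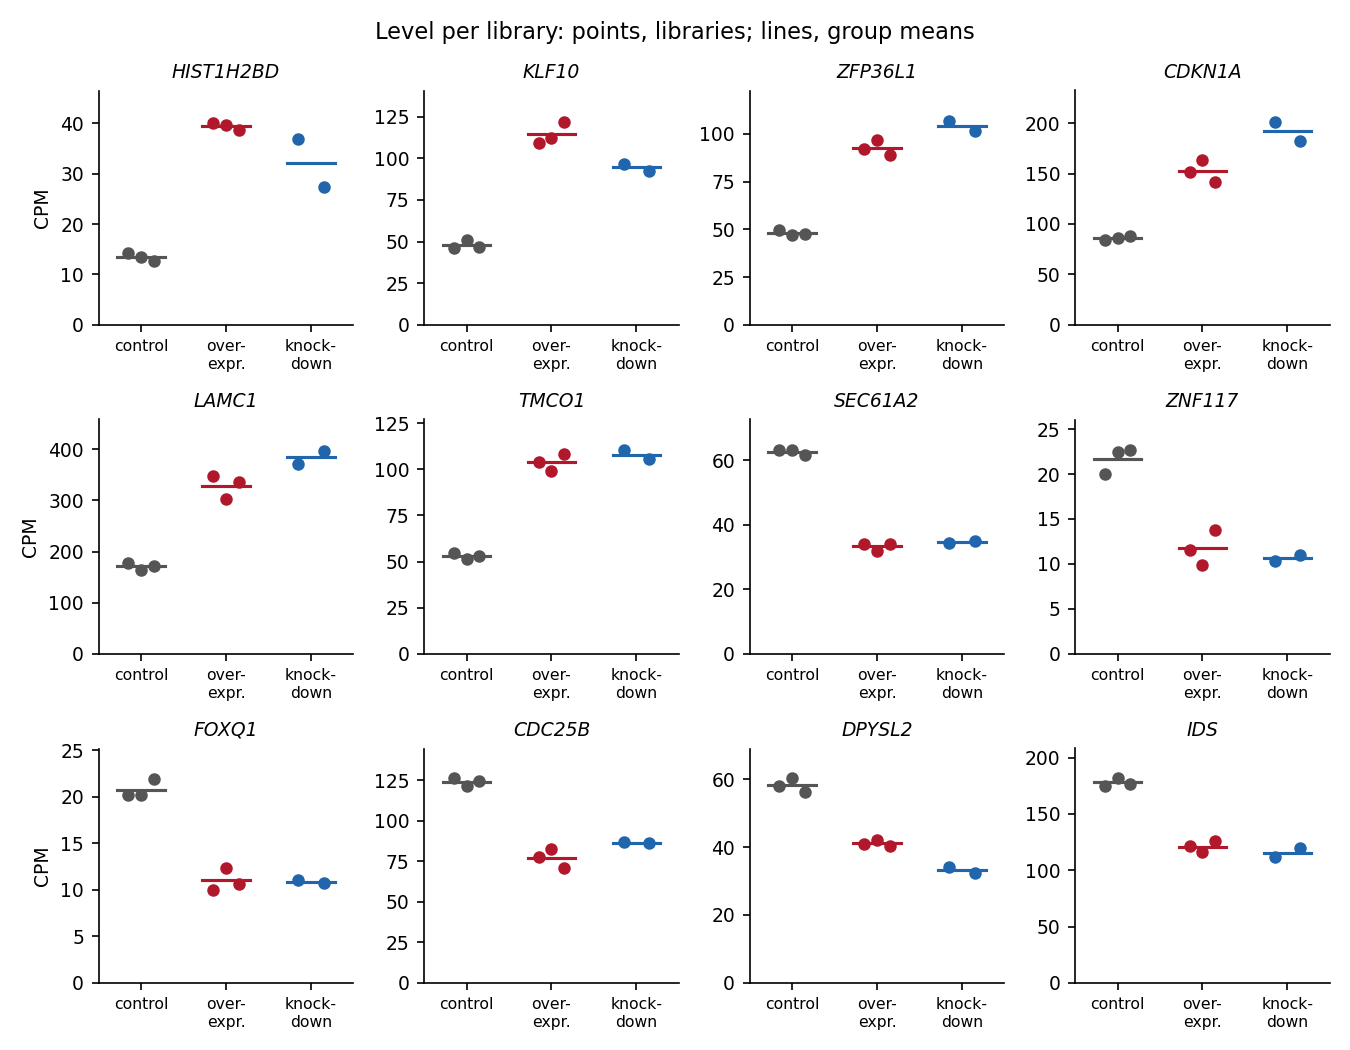
CPM (counts scaled to library size by TMM) of 12 genes moved the same way by both, in each control, overexpression and knockdown library; points are libraries and lines are group means. In every panel the 5 treated libraries lie on one side of the 3 control libraries, above them in the first 6 genes and below them in the last 6. For genes named by the rule of size, this was a condition of being named.

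Replication-dependent histone genes formed the list with the highest share of members moved the same way. These genes encode the bulk of nucleosomal histones, are transcribed in S phase and end their mRNAs in a stem-loop in place of a poly(A) tail. Of 43 members tested, 28 were higher and 0 lower in the contrast of both, and 23 rose the same way (53.5%, against 7.3% of all tested genes). The list's median log2 fold change was 0.90, with 0.92 for overexpression and 0.98 for knockdown, and the value of both was above 0 for 43 of 43 members. Without knockdown replicate 2 the count moved the same way was 13. Many members are near-identical in sequence, which makes the counts of single genes uncertain. How the libraries were selected for polyadenylated RNA is not given in the sources used here.

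HIST1H1C, a linker histone gene, stood at 46.4, 45.9 and 46.4 CPM in control, 134, 138 and 131 CPM with overexpression and 85.2 and 70.1 CPM with knockdown. Its log2 fold change of both was 1.15 ± 0.06 and its rise was larger with overexpression (difference 0.78, adjusted p = 1e-08). HIST2H2BE stood at 25.3, 26.7 and 22.2 CPM in control, 51, 53.6 and 49 CPM with overexpression and 53.2 and 40.8 CPM with knockdown. Knockdown replicate 3 lay below replicate 2 in all 4 of HIST1H1C, HIST1H2BD, HIST2H2BE and HIST2H2BF. HIST1H4H rose with knockdown (1.63 ± 0.13) and stood at 0.19 ± 0.14 with overexpression, where it did not pass the test. The 23 histone genes moved the same way ranged from 0.55 to 1.68 in the log2 fold change of both.

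Most histone promoters in RefSeq (GRCh38.p14, from 250 bases before to 50 after the start) held a TATA box and CCAAT boxes, the elements common to this gene class. The letters TATAAA on either strand occurred in 24 of 35 histone promoters with an entry, against 9.0% of all 11555 promoters matched, 12.2% of those of genes that rose the same way and 8.32% of those that fell. CCAAT occurred in 30 of 35, against 43.2% of all. The promoters of the H2B genes HIST1H2BD (RefSeq symbol H2BC5, chr6:26157871-26158170, plus strand) and HIST2H2BE (H2BC21, chr1:149886633-149886932, minus strand) are shown because they belong to the strongest shared risers, with TATAAA and CCAAT of either strand in capitals.
HIST1H2BD: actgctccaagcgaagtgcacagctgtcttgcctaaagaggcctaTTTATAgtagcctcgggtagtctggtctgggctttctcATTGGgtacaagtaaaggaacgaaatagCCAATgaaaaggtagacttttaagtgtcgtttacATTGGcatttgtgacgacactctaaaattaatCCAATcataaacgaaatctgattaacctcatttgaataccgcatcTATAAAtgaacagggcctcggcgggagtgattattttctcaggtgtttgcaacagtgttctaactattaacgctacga
HIST2H2BE: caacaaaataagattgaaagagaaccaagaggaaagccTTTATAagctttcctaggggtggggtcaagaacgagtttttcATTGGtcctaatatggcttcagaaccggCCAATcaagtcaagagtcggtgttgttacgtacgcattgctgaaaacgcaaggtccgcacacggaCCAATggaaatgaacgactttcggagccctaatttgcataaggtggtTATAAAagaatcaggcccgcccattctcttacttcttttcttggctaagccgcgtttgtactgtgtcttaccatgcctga
Both held a TATAAA close before the start and several CCAAT boxes. The promoter of HIST1H1C, also a strong shared riser, had 0 matches to TATAAA and 1 to CCAAT. After its CCAAT it held the letters TATATATA, which a search for TATAAA misses. The count of 0 therefore does not mean that it lacks a TATA box. A match describes the letters only.

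**Figure D3:**
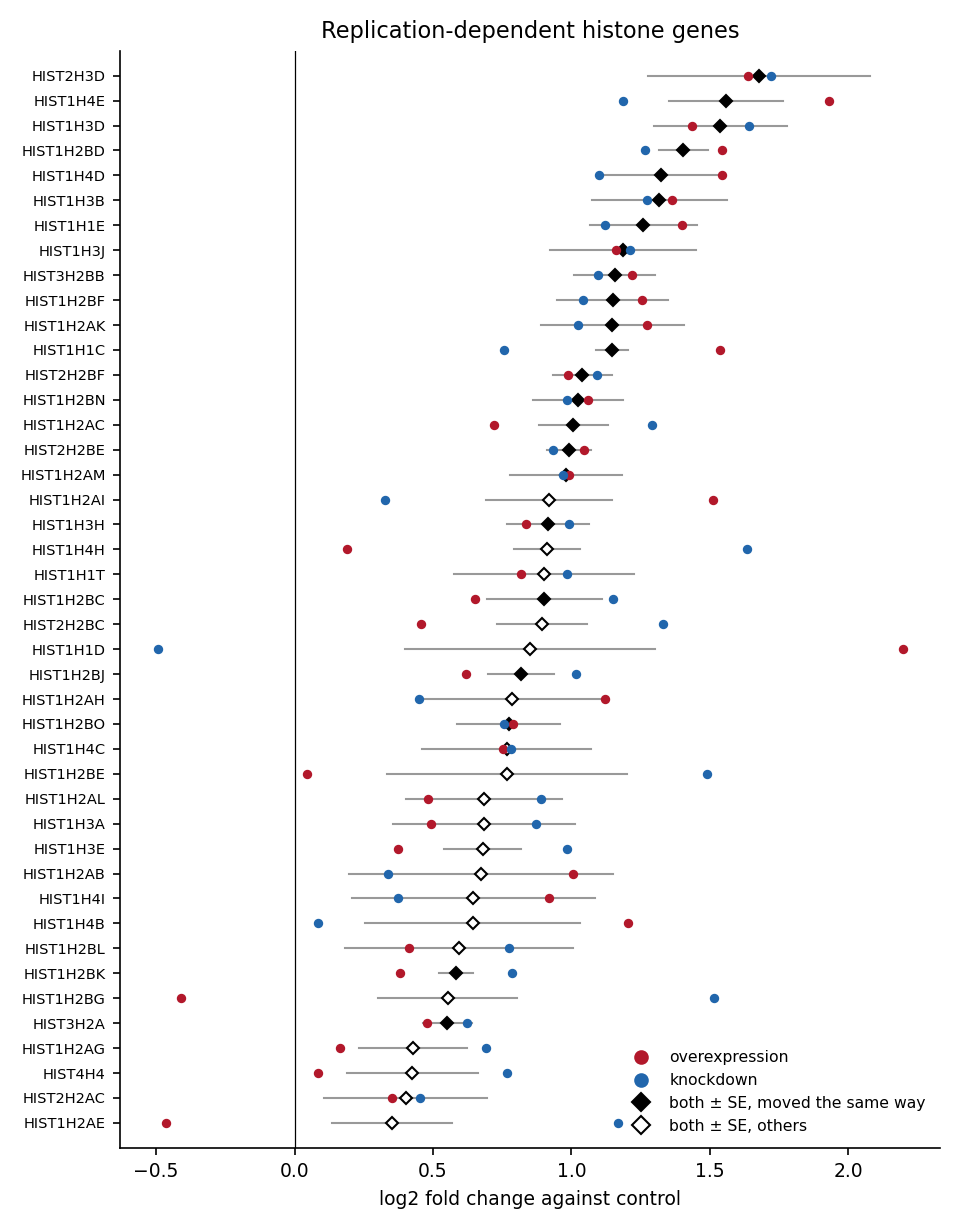
Log2 fold change against control of the 43 replication-dependent histone genes tested, with overexpression (red circles), with knockdown (blue circles) and for both (diamonds, with bars of 1 standard error); filled diamonds are the 23 genes moved the same way. Every diamond lies to the right of 0, while the circles of several genes with open diamonds lie far apart.

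Of 10 variant and replication-independent histone genes tested, 1 rose and 2 fell the same way. H1F0, the linker histone of non-dividing cells, rose (0.90 ± 0.05, 1.56 with overexpression and 0.24 with knockdown). H2AFV and H2AFY, which encode the variants H2A.Z.2 and macroH2A1, fell by 0.34 and 0.32.

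Of 32 tested targets of p53, the transcription factor that halts the cell cycle after damage, 22 were higher, 0 lower and 10 not called in the contrast of both, and 17 rose the same way (53.1%). The list median was 0.37 (0.32 with overexpression, 0.52 with knockdown). CDKN1A, the p21 inhibitor of cyclin-dependent kinases, stood at 83.6, 86.4 and 88.0 CPM in control, 151, 163 and 142 CPM with overexpression and 202 and 183 CPM with knockdown (1.00 ± 0.05). It was the knockdown libraries that lay highest. PLK2, a stress-responsive kinase, rose by 0.91 ± 0.06 and BTG2, an antiproliferative cofactor of deadenylation, by 0.72 ± 0.05. RPS27L, a ribosomal protein paralog that p53 induces, went from 22.9, 22.1 and 21.4 CPM to 36.1, 36.5 and 36.1 CPM with overexpression and 46.6 and 45.0 CPM with knockdown. The other 13 were GADD45A, TNFRSF10B, PPM1D, ZMAT3, SESN2, POLH, FAS, TP53INP1, EDA2R, PLK3, SERTAD1, DDB2 and CCNG1. With 3' UTR word holders dropped from the 17 (words described further on), 11 remained.

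Immediate early genes, which respond to growth factors and stress within minutes, were higher for 22 and lower for 2 of 37 tested, and 11 rose the same way (29.7%). ATF3, a stress-induced transcription factor, stood at 153, 153 and 157 CPM in control, 257, 252 and 259 CPM with overexpression and 250 and 228 CPM with knockdown (0.68 ± 0.04). JUN, a subunit of AP-1, stood at 495, 496 and 492 CPM in control, 678, 714 and 668 CPM with overexpression and 639 and 624 CPM with knockdown (0.41 ± 0.04). KLF10 and ZFP36L1, described above, belong to the list, with ZFP36, JUNB, FOSL1, KLF6, IER3, IER5 and NR4A2. DUSP5, a phosphatase of ERK, was the 1 member that fell with both.

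Lists of the extracellular matrix and its receptors held more higher than lower genes. Of 33 integrins, laminins and other basement membrane genes, 21 were higher and 1 lower, 16 rose the same way (48.5%) and the median was 0.35. The laminin chain genes LAMC1, LAMB1 (0.67 ± 0.06), LAMA1, LAMA4, LAMA5, LAMB2 and LAMC3 were among the 16. NID1, which links laminin to collagen IV, stood at 233, 227 and 219 CPM in control, 271, 258 and 265 CPM with overexpression and 505 and 466 CPM with knockdown. Both treatments lay above control, but by unequal amounts (0.23 ± 0.05 and 1.104 ± 0.05). The integrin gene ITGA5, the alpha chain of the fibronectin receptor, rose by 0.65 ± 0.06.

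Collagen genes were higher for 16 and lower for 5 of 32 tested, and 11 rose the same way (34.4%). COL2A1, which encodes the fibril collagen of cartilage, stood at 109, 109 and 118 CPM in control, 204, 207 and 192 CPM with overexpression and 208 and 228 CPM with knockdown (0.91 ± 0.05). COL5A1 rose by 0.89 ± 0.09, COL6A2 by 0.67 ± 0.08 and COL13A1 by 0.97 ± 0.12. COL17A1 was the 1 collagen gene that fell with both, at under 2 CPM in every library. Without knockdown replicate 3 the collagen genes that rose the same way numbered 6, and without control replicate 1 they numbered 7. Other matrix and adhesion genes were higher for 23 and lower for 2 of 44, and 13 rose the same way (29.5%). FBN2, a fibrillin of elastic fibres, rose by 0.64 ± 0.06, SERPINH1, the collagen chaperone, by 0.38 ± 0.05, FBLN1 by 0.40 ± 0.05 and the proteoglycan gene GPC1 by 0.50 ± 0.07.

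Cytoskeletal targets of SRF and YAP were split, with 9 higher and 5 lower of 32. Of the 32, 8 rose the same way (25.0%, against 7.3% of all tested genes). ACTA2, smooth muscle actin, stood at 7.18, 8.39 and 8.08 CPM in control, 11.8, 12.1 and 10.6 CPM with overexpression and 24.8 and 23.9 CPM with knockdown. Its rise was 0.56 ± 0.10 with overexpression and 1.64 ± 0.09 with knockdown, a difference that passed the test (adjusted p = 6.06e-09). VCL, which anchors actin at adhesions, rose by 0.34 ± 0.04 and the filamin gene FLNC by 0.46 ± 0.06, where knockdown replicate 2 overlapped the controls. The list median, 0.06, lay close to that of all genes.

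Chaperones and stress genes of the endoplasmic reticulum (ER) were higher for 21 and lower for 2 of 33 tested, and 11 rose the same way (33.3%). This set belongs to the unfolded protein response, in which kinases and transcription factors raise folding capacity when unfolded proteins build up in the ER. The sensor kinase gene EIF2AK3 (PERK) stood at 30.7, 31.2 and 31.1 CPM in control, 48.1, 47.8 and 53.3 CPM with overexpression and 47.5 and 46.1 CPM with knockdown (0.64 ± 0.06). PPP1R15A (GADD34), which restores translation after stress, stood at 169, 172 and 171 CPM in control, 263, 258 and 245 CPM with overexpression and 307 and 260 CPM with knockdown. HSPA5 (BiP), the ER member of the HSP70 family, rose by 0.36 ± 0.05 and HSP90B1, the ER member of the HSP90 family, by 0.31 ± 0.06. MANF rose by 0.57 ± 0.05 and HERPUD1, a component of ER-associated degradation, by 0.48 ± 0.05, with the larger part from overexpression. Without knockdown replicate 3, 7 members rose the same way.

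The ER stress element, written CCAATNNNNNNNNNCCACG, is the textbook control element of this response. On either strand it occurred in 0.138% of the 11555 promoters, in 5 of 860 promoters of genes that rose the same way (0.581%) and in 1 of 721 that fell (0.139%). The 5 genes were HSPA5, HSP90B1, PDIA6, SERP1 and ZNF17, and the 1 lower gene was TMEM120A. The matches of 4 of them are shown, with the ends of the element in capitals.
HSPA5 (chr9:125241391-125241409, minus strand): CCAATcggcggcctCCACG
HSP90B1 (chr12:103930216-103930234, plus strand): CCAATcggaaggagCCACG
HSP90B1 (chr12:103930321-103930339, minus strand): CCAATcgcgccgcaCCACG
PDIA6 (chr2:10812853-10812871, minus strand): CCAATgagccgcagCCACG
SERP1 (chr3:150546710-150546728, plus strand): CCAATtcgctgtctCCACG
Coordinates are those of GRCh38.p14. The match of SERP1 lies in a start region it shares with EIF2A, which was not called (-0.10 ± 0.04). Of the 16 genes holding the element, ALG12, CANX, CRELD2, FICD and SYNPO were not called either. The other 4 were higher in the mean through 1 treatment only: ERO1LB (0.67) and TRIM5 (0.65) rose with overexpression and stood at 0.01 and 0.02 with knockdown, XBP1 rose with overexpression (0.62) and stood at 0.10 with knockdown, and CALR rose with knockdown (0.56) and stood at -0.11 with overexpression. Holding the element therefore did not go with a shared rise in every gene.

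Cytosolic chaperones and heat shock genes were higher for 14 and lower for 6 of 40, with 6 that rose and 2 that fell the same way. The share that rose lay above the 7.3% of all tested genes, while the share that fell lay just below their 5.79%. HSPA1A stood at 1214, 1116 and 1103 CPM in control, 2019, 2199 and 2202 CPM with overexpression and 1414 and 1313 CPM with knockdown (0.58 ± 0.04). HSPA1B gave 0.53 ± 0.04, but the 2 genes are near-identical and their counts may be split between them. HSPB1 rose by 0.58 ± 0.07 and the cochaperone gene BAG3 by 0.35 ± 0.05. HSPA6, another inducible HSP70 gene, rose with overexpression only among the single tests, from 0.355, 0.155 and 0.334 CPM in control to 24.6, 22.3 and 19.3 CPM, and stood at 0.222 and 0.213 CPM with knockdown. Targets of ATF4, the factor of the amino acid response, were higher for 16 and lower for 4 of 45. Of the 45, 6 rose the same way (13.3%), among them SLC3A2 (0.41 ± 0.05), DDIT3 (0.41 ± 0.06), SESN2 (0.40 ± 0.05) and CEBPG (0.34 ± 0.04).

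Zinc finger genes with a ZNF symbol, many of them KRAB-type repressors of retroelements, were the largest list. Of 470 tested, 165 were higher and 41 lower, and 78 rose and 12 fell the same way (16.6% and 2.55%). The list median was 0.10. ZNF184 stood at 24.2, 24.0 and 23.2 CPM in control, 52.9, 50.05 and 54.1 CPM with overexpression and 38.6 and 38.3 CPM with knockdown (0.91 ± 0.06). ZNF256 rose by 0.72 ± 0.06 and ZNF266 by 0.53 ± 0.05, both more with overexpression. ZNF117 was the member that fell furthest among those named. The count that rose the same way was 47 without knockdown replicate 2. With 3' UTR word holders dropped from the 78, 48 remained.

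Lysosomal genes were higher for 19 and lower for 6 of 47, and 11 rose the same way (23.4%). LAMP2, a membrane glycoprotein of lysosomes, stood at 96.7, 86.2 and 90.4 CPM in control, 141, 128 and 152 CPM with overexpression and 182 and 180 CPM with knockdown (0.80 ± 0.06). The hydrolase genes MAN2B1 and GUSB rose by 0.53 ± 0.06 and 0.51 ± 0.05. IDS, by contrast, fell with both. Genes of TGF-beta and BMP signalling were higher for 13 and lower for 7 of 44, and 9 rose the same way (20.5%). Among them were the ligand genes TGFB1 (0.51 ± 0.07) and INHBB (0.67 ± 0.08), the receptor gene TGFBR2 (0.47 ± 0.06) and ID4, an inhibitor of transcription factors downstream of BMP (0.37 ± 0.04). The receptor gene BMPR1B and the signal transducer gene SMAD2 fell the same way.

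Lists that leaned lower did so by less. DNA replication and S phase genes were lower for 18 and higher for 3 of 52, with 7 that fell the same way (13.5%, against 5.79% of all genes) and a median of -0.07. E2F1, the S phase transcription factor, stood at 123, 122 and 131 CPM in control, 110, 119 and 102 CPM with overexpression and 81.0 and 82.8 CPM with knockdown (-0.39 ± 0.05). E2F2 fell by 0.39, UHRF1, which maintains DNA methylation, by 0.36 and RRM2, a subunit of ribonucleotide reductase, by 0.34. TYMS, MCM6 and SLBP, which binds the histone stem-loop, completed the 7, while POLD1 rose. The 7 became 4 without knockdown replicate 2 or control replicate 1 and 3 without knockdown replicate 3 or control replicate 2.

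Mitotic genes were mixed, at 5 higher and 13 lower of 42. The same way, 3 rose and 4 fell (7.14% and 9.52%, against 7.3% and 5.79% of all tested genes). CDC25B, a phosphatase that opens mitosis, stood at 126, 122 and 124 CPM in control, 77.5, 82.5 and 70.7 CPM with overexpression and 86.8 and 86.2 CPM with knockdown (-0.60 ± 0.05). ESPL1, which encodes separase, fell by 0.29. TOP2A and HMMR rose by 0.23 ± 0.04 and 0.41 ± 0.05.

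Genes of the neuronal cytoskeleton, projections and synapse, many of which HEK293 cells express, were higher for 13 and lower for 21 of 55, and 11 fell the same way. DPYSL2, a regulator of axonal microtubules, stood at 58.1, 60.3 and 56.3 CPM in control, 40.8, 42.3 and 40.3 CPM with overexpression and 34.0 and 32.5 CPM with knockdown (-0.65 ± 0.05). Its paralog DPYSL5 fell by 0.56 and the microtubule destabilizer STMN1 by 0.38. SNAP25, TUBB2B, TUBB3 and STX1A rose the same way, a share of 7.27% that lay near the 7.3% of all tested genes.

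RNA polymerase subunits were lower for 14 and higher for 4 of 31, with 6 that fell the same way (19.4%) and a median of -0.11. The polymerase III subunit gene POLR3F fell by 0.48 and the polymerase II subunit gene POLR2D by 0.42, both more with knockdown. POLR3G, by contrast, rose by 0.42 ± 0.06. Without control replicate 1 the 6 became 3.

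**Figure D4:**
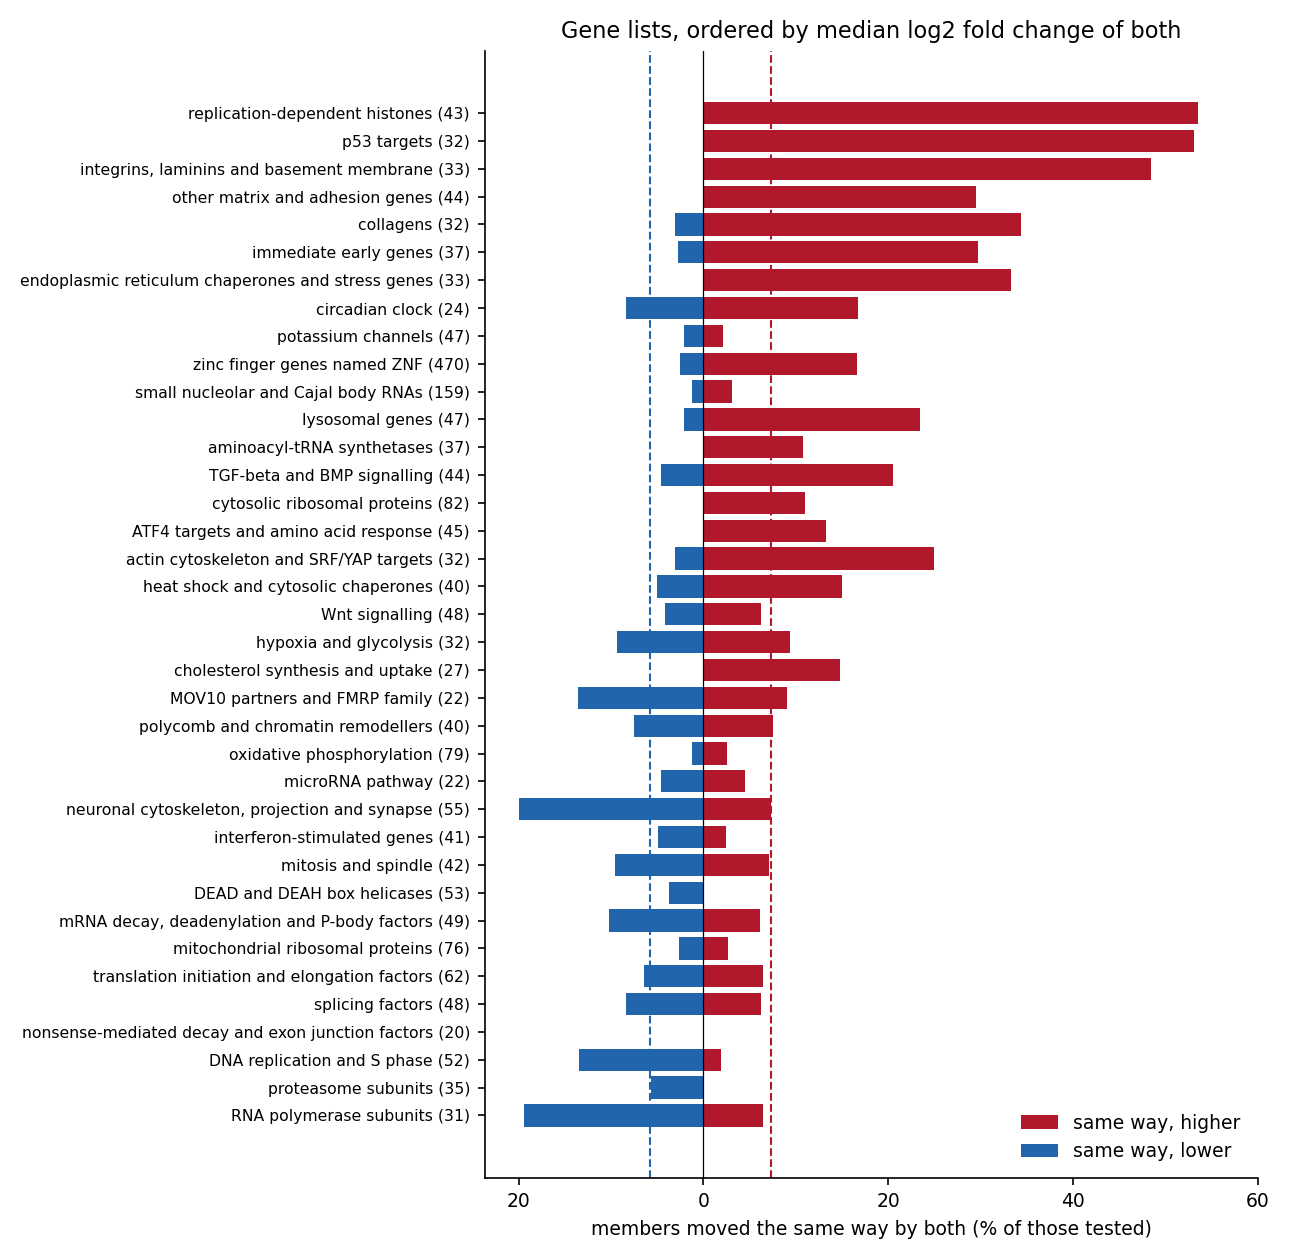
Share of the tested members of each gene list with at least 20 tested that moved the same way by both perturbations, higher to the right in red and lower to the left in blue, with the number tested in brackets and lists ordered by their median log2 fold change; dashed lines mark the shares over all tested genes, 7.3% and 5.79%. The histone, p53, basement membrane, collagen and ER lists extend well past the right line, and the lists furthest past the left are the neuronal list, RNA polymerase subunits, MOV10 partners with the FMRP family (13.6%), DNA replication and mRNA decay (10.2%).

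Genes of the RNA regulatory machinery in which MOV10 works moved the same way in small numbers, in both directions. Against 7.3% and 5.79% of all tested genes, the shares that rose and fell were 4.55% and 4.55% for the microRNA pathway, 6.12% and 10.2% for mRNA decay and P-bodies, and 9.09% and 13.6% for MOV10 partners and the FMRP family. Of 22 microRNA pathway genes, ZCCHC6, a uridylyltransferase, rose (0.32 ± 0.05) and DICER1 fell (-0.20 ± 0.05). Of 49 genes of mRNA decay and P-bodies, TOB1 (0.56 ± 0.04), BTG1 (0.35 ± 0.04) and DCP1A (0.34 ± 0.05) rose, while LSM14B, DDX6, DCP2, LSM14A and EXOSC5 fell. DDX6, the P-body helicase, stood at 250, 256 and 235 CPM in control, 183, 164 and 192 CPM with overexpression and 220 and 197 CPM with knockdown. Among 22 MOV10 partners and FMRP family genes, FMR1, STAU1 and G3BP1 fell and PURB and NUFIP1 rose. STAU1, which binds double-stranded RNA, stood at 250, 255 and 249 CPM in control, 212, 218 and 213 CPM with overexpression and 215 and 210 CPM with knockdown (-0.24 ± 0.04), a small shift with no overlap.

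Nonsense-mediated decay and exon junction factors gave 1 higher and 8 lower of 20 in the contrast of both but 0 moved the same way. RBM8A, an exon junction core subunit, stood at -0.53 ± 0.05 with overexpression and 0.08 ± 0.06 with knockdown. Proteasome subunits gave 1 higher and 13 lower of 35. PSMA1 and PSMD12 fell with both (5.71%, against 5.79% of all tested genes), each by under 0.2 and with overlap between treated and control libraries. Of 53 DEAD and DEAH box helicases, DDX6 and DDX1 fell the same way (3.77%, against 5.79% of all tested genes) and 0 rose. Of 48 splicing factors, 3 rose and 4 fell the same way (6.25% and 8.33%). Among them were HNRNPR (-0.37 ± 0.04) and the splicing kinase gene CLK1 (0.44 ± 0.05). Of 62 translation factors, 4 rose and 4 fell (6.45% each), among them EIF3B (-0.40 ± 0.04) and EIF4A2 (0.28 ± 0.04). The shares of both lists lay near those of all tested genes, 7.3% and 5.79%.

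The contrast of the mean also named genes that a single treatment carried. MRC2, a collagen-binding endocytic receptor, stood at 11.9, 11.9 and 12.2 CPM in control, 37.7, 38.6 and 33.1 CPM with overexpression and 12.7 and 16.6 CPM with knockdown. Its 5 treated libraries lay above the controls, but the knockdown value of 0.26 ± 0.11 missed the threshold (adjusted p = 0.061). LPPR3 rose with overexpression (1.84 ± 0.14) and stood at 0.26 ± 0.18 with knockdown. On the lower side CPT1C, ANXA3 and SLC2A3 fell with knockdown by 1.13 to 1.22 and stood between -0.19 and -0.14 with overexpression. In all 7 of these one-sided genes, HSPA6 and HIST1H4H included, overexpression and knockdown differed by 0.94 or more, and that difference passed the test.

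Transcripts moved the same way differed in base composition by direction. GENCODE 29 was matched to 14581 of the tested genes. Those that rose had a median GC content of 47.0% over the transcript and 39.2% in the 3' UTR, those that fell 50.6% and 44.6%, and all tested genes 48.8% and 42.6%. The median 3' UTR length was 1450 nt in higher, 1665 nt in lower and 1390 nt in all genes. By chromosome, the share that rose the same way was highest on chromosome 6, where the main histone cluster lies, at 11.2% of 804 genes. Without the replication-dependent histones it was 9.36% of 769 genes there, below chromosomes 3 (9.73%), 19 (9.51%) and 14 (9.38%), so the first rank rested on the histones.

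Short words in 3' UTRs were also set against the contrast, since MOV10 and small RNAs both act there. Each 7-base word was ranked by the difference in log2 fold change between genes holding it and the rest, relative to its standard error and with an adjustment for the length and base composition of the 3' UTR, over 11596 genes and 15922 words. The words ranked first and second from the top were AGCCTTA and ACATCAA. Genes with the first had an adjusted difference of 0.05 for both, 0.05 with overexpression, 0.05 with knockdown and 0.00 for overexpression minus knockdown. In the single comparisons these words ranked 3 and 4 with overexpression and 1 and 2 with knockdown, and in overexpression minus knockdown they ranked 6298 and 5929. The differences are small and the words were chosen on these values, so they are a description with no test.

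At least 1 of these 2 words occurred in the 3' UTR of 319 of 1033 genes that rose the same way (30.9%), of 140 of 846 that fell (16.5%) and of 19.7% of all 13686 genes with a 3' UTR. The same letters reversed occurred in 14.6%, 13.5% and 12.4%. The 2 words were chosen on these fold changes and the reversed letters were not. A higher share of the words among risers was thus built into the choice, and the reversed letters cannot test it. Of genes holding either word 11.8% rose the same way, against 6.5% of genes without, and of 332 genes holding both words it was 15.7%. Among the 14 higher genes named by size, 5 held a word: ERAP2, TMCO1, ZFP36L1, RECK and KLF10. The sites of 4 of them are shown from GENCODE 29 transcripts, with GRCh38 positions, as 30 bases of the 3' UTR with the word in capitals.
ERAP2 (chr5:96918469-96918498, plus strand): ccttttgggttaAGCCTTAcattcatgaag
ERAP2 (chr5:96918620-96918649, plus strand): ccatttggtttaAGCCTTAcattcatgaag
TMCO1 (chr1:165727921-165727950, minus strand): agagccataggtAGCCTTActacttgggcc
ZFP36L1 (chr14:68789204-68789233, minus strand): ttttccggcttaAGCCTTAagtgccaaatc
ZFP36L1 (chr14:68788374-68788403, minus strand): gcttgtcactgcACATCAAtataaaaaagc
RECK (chr9:36123824-36123853, plus strand): tagagtttttaaACATCAAtctttaaacca
A small interfering RNA can lower transcripts that pair with its seed, and neither siRNA sequence is given in the sources used here, so a match with either was not tested. With all genes holding either word dropped from those moved the same way, and no new fit, 795 that rose and 743 that fell remained.

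The word ranked lowest was GCAAACA, and the lowest that does not overlap it was GTCTGTT. Genes holding GCAAACA had an adjusted difference of -0.12 with knockdown and 0.01 with overexpression, and genes holding GTCTGTT one of -0.08 and 0.01. These words therefore stood low in the mean of both through the knockdown alone. Either one occurred in 35.0% of genes that fell the same way, in 186 of 1033 that rose and in 23.7% of all.

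**Figure D5:**
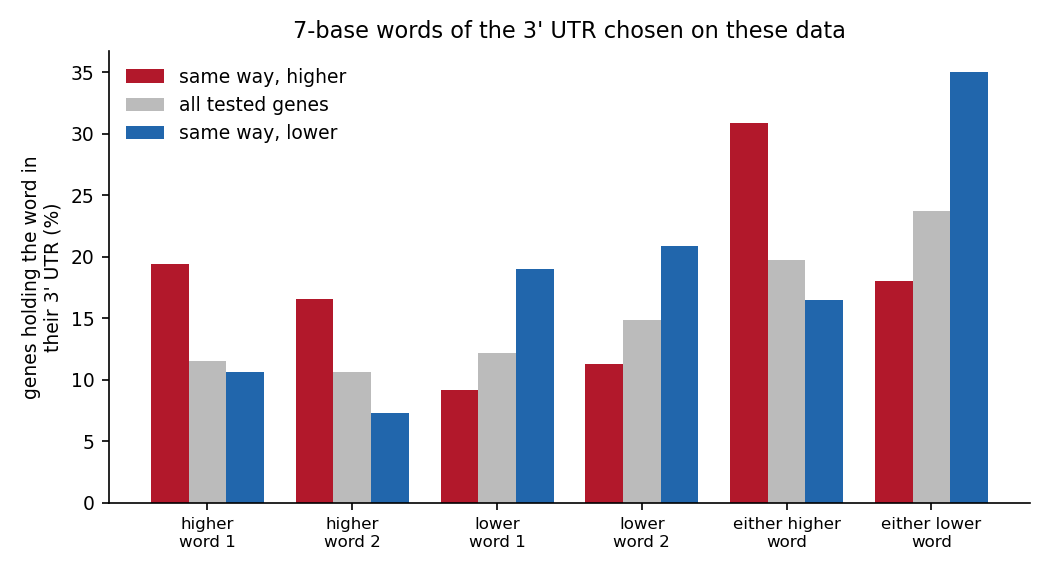
Percentage of genes whose 3' UTR holds each 7-base word, for genes that rose the same way (red), all tested genes with a 3' UTR (grey) and genes that fell the same way (blue); higher words 1 and 2 are the 2 ranked first from the top and lower words 1 and 2 those described as ranked lowest. Either higher word is held by 30.9% of the rising genes against 19.7% of all, and either lower word by 35.0% of the falling genes against 23.7% of all. The words were chosen on these same data, so the differences are not a test.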

How the data were processed

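The authors deposited raw counts of reads per gene symbol for 8 libraries, not normalized. Total RNA, extracted with Trizol, went into TruSeq Stranded libraries, per the labels' protocols. Per the submitters' processing notes, the build was hg19 and the tools included TopHat2 2.0.8, Trimmomatic 0.22, HTSeq 0.5.3p9, CASAVA 1.8.2, SAMtools 0.1.18 and edgeR. The strand setting and the treatment of multiply aligned reads were not given in the sources used here.

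Of 23368 symbols, 15254 passed filterByExpr (minimum count 10, minimum total 15). They were tested with edgeR 4.0.16 in R 4.3.3 (TMM, 1 mean per group, quasi-likelihood F test, two-sided, Benjamini-Hochberg adjustment over all genes). TMM factors ran from 0.961 to 1.03, and the common biological coefficient of variation was 4.49%. CPM use TMM-scaled totals and are not per length. No pair of replicates agreed within sampling noise. The script was tested on simulated data.

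Named genes comprise MOV10, the 14 higher and 14 lower genes moved the same way (mean log2 CPM of at least 3, every treated library beyond every control) with the largest smaller single fold change, 4 one-sided genes in each direction, and the 4 or fewer members of each list lowest in adjusted p. A few of them are not reported here. ER promoter matches, XBP1, CALR and other members listed by name were chosen after their values were seen. The genes and lists were chosen with earlier results of these data known. Symbols were matched to GENCODE 29 and RefSeq (GRCh38.p14) by name or older symbol. Alternatives included DESeq2 1.42.0, limma 3.58.1 (voom), other filters and scalings, and leaving out each library.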

Additional observations from a re-analysis of the deposited data

How the results depend on the processing

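Library totals, size factors, other count filters, thinning, DESeq2 and limma-voom left each count of changed genes within 1.5 times of its main value. The members changed more than the counts with library totals. Of 1083 higher and 934 lower genes moved the same way there, 933 and 734 were shared with the main result. Of 716 that differed there, 438 were shared. In the contrast of both, 2747 of 2747 higher and 2886 of 2929 lower genes were shared. A fold threshold of 1.2 gave 548 higher and 354 lower genes in the contrast of both, 227 and 97 moved the same way, and 28 of these that differed between the treatments. An adjusted p of 0.01 gave 1878 and 1865, 664 and 470, and 263. Leaving out 1 library at a time gave 2039 to 3238 higher, 2028 to 3381 lower, 738 to 1331 and 524 to 1149 moved the same way, and 325 to 993 that differed. In the contrast of both the lowest counts came without control replicate 1, and the lowest counts moved the same way and differing came without knockdown replicate 2. The count that differed was also 421 without knockdown replicate 3 and 462 without overexpression replicate 1. MOV10 kept its directions, at 5.04 to 5.18 and -0.68 to -0.54. Leaving out genes with either leading 3' UTR word, added after seeing the data, gave 2132 and 2430, 795 and 743, and 550. That step dropped genes from the main calls with no new fit, so the counts could only fall. The causes were not tested. Of 3398 values of named genes in the contrast of both under the alternatives, 3328 kept their side of the threshold, 70 lost it and 0 reversed. Of 170 named genes, 58 lost it under at least 1 alternative. The single comparisons of these genes, which define a move the same way, were not followed through the alternatives.

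With the replicate number as a block, the counts were 2502 higher and 2597 lower, 938 and 702 moved the same way, and 511 that differed. Deviations of same-numbered libraries correlated between -0.305 and 0.213, so the numbers were not taken as pairs. Depth limits genes of a few CPM, where only large shifts pass.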

Other observations

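Sterol genes included a pair of shared risers of unequal size. Of 27 genes of cholesterol synthesis and uptake, 9 were higher and 3 lower. INSIG1, HMGCS1, SQLE and PMVK rose the same way (14.8%, against 7.3% of all tested genes). INSIG1, which restrains sterol synthesis, stood at 366, 378 and 394 CPM in control, 829, 909 and 1003 CPM with overexpression and 393 and 474 CPM with knockdown, where 1 knockdown library overlapped the controls. Clock genes were higher for 11 and lower for 2 of 24. The same way, 4 rose and 2 fell (16.7% and 8.33%, against 7.3% and 5.79% of all tested genes). PER2, a repressor of the clock, stood at 14.6, 14.1 and 14.5 CPM in control, 19.97, 19.3 and 18.6 CPM with overexpression and 21.8 and 19.99 CPM with knockdown (log2 fold change 0.49 ± 0.07), and BHLHE40 and CRY2 rose by 0.38 ± 0.06 and 0.35 ± 0.07. TIMELESS fell by 0.24. CTNNB1, beta-catenin, stood at 437, 427 and 423 CPM in control, 518, 494 and 535 CPM with overexpression and 799 and 756 CPM with knockdown (0.56 ± 0.04). Of 48 Wnt genes in all, 3 rose and 2 fell the same way (6.25% and 4.17%), below the shares of all tested genes.

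Cytosolic ribosomal protein genes were higher for 23 and lower for 2 of 82. Of the 82, 9 rose the same way, a share above the 7.3% of all tested genes, and 0 fell. Among the 9 were RPS27L, RPL9 (0.36 ± 0.05), RPL10A (0.25 ± 0.04) and RPL24 (0.24 ± 0.04). Mitochondrial ribosomal proteins and oxidative phosphorylation moved the same way at 2 and 2 of 76 and 2 and 1 of 79, below the shares of all tested genes. MRPL36 was the member with the largest shared shift named, at 31.8, 31.3 and 30.9 CPM in control, 47.6, 50.1 and 48.7 CPM with overexpression and 47.6 and 46.7 CPM with knockdown (0.61 ± 0.05). Interferon-stimulated genes gave 1 that rose and 2 that fell the same way of 41, PARP12, HERC5 and EIF2AK2. Those shares, 2.44% and 4.88%, were below those of all tested genes. SNHG15, a host gene of a small nucleolar RNA, rose by 0.62 ± 0.05, and DANCR fell by 0.30.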
